A study of Mus musculus with 6 samples.

Results

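The genes of zinc transport and zinc buffering were examined in mouse beta-cells whose neighbours in culture either included alpha- and delta-cells or did not. The set holds 10 genes, chosen by name: the zinc exporters *Slc30a8*, *Slc30a1*, *Slc30a5*, *Slc30a6*, *Slc30a7* and *Slc30a9*, the zinc importer *Slc39a14*, the zinc-sensing transcription factor *Mtf1*, and the metallothioneins *Mt1* and *Mt2*. All 10 are among the 13535 genes of the deposited table. Islet cells of 12-week-old male wild-type C57BL/6JRj mice were sorted and reaggregated for 5 days, either as pseudo-islets, in which alpha-, beta- and delta-cells were mixed, or as pseudo-beta, made from beta-cells alone. Beta-cells were then sorted out of both kinds of cluster and their RNA was sequenced. There were 3 samples of each kind, from experiments numbered 35, 36 and 37, with 1 sample of either kind in each experiment. The number of mice behind an experiment is not given in the sources used here. Values are the authors' normalized counts, which correct for library depth but not for gene length.

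Beta-cells hold more zinc than most cells, because insulin is packed in secretory granules around zinc ions. Most proteins of the SLC30 family (ZnT) move zinc out of the cytosol, either across the plasma membrane or into organelles, and proteins of the SLC39 family (ZIP) move it into the cytosol. Metallothioneins are small cysteine-rich proteins that bind zinc, and MTF1 is the factor that turns on their genes when free zinc rises. In bulk RNA of sorted cells, fewer cells with a transcript and less of that transcript per cell cannot be told apart.

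None of the 10 genes was called as different between beta-cells of pseudo-islets and of pseudo-beta. The granule exporter gene *Slc30a8* was the one closest to a call, with a level about 0.808 times as high in pseudo-islets (95% confidence interval 0.642 to 1.02) and a lower value there in 3 of 3 experiments. *Mt1* and *Mt2* had lower means in pseudo-islets but were lower in only 2 of the 3 experiments. The other 7 genes had log2 fold changes, pseudo-islets over pseudo-beta, from -0.51 (*Slc39a14*) to 0.12 (*Slc30a1*). In limma on log2(value + 1) with Benjamini-Hochberg adjustment over all genes, the adjusted p fell under 0.05 for 0 of the 10, against 0.0591% of all genes, and the unadjusted p for 0, against 5.40%. When the experiment entered as a replicate block, so that a sample was set against its partner, the adjusted p was under 0.05 for 0 of the 10 (lowest 0.166, limma), against 0.539% of all genes, and the unadjusted p for 1, against 11.9%. The 10 log2 fold changes had a median of -0.24, with 8 below 0, and those of all 13535 genes one of 0.0091, with 6580 below 0. Experiment 35 weighed on that median, which was -0.075 without its pseudo-islets sample, -0.14 without its pseudo-beta sample and -0.020 without both in the fit with the block, and the number below 0 ran from 5 to 10 over the alternatives tried.

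**Figure D1:**
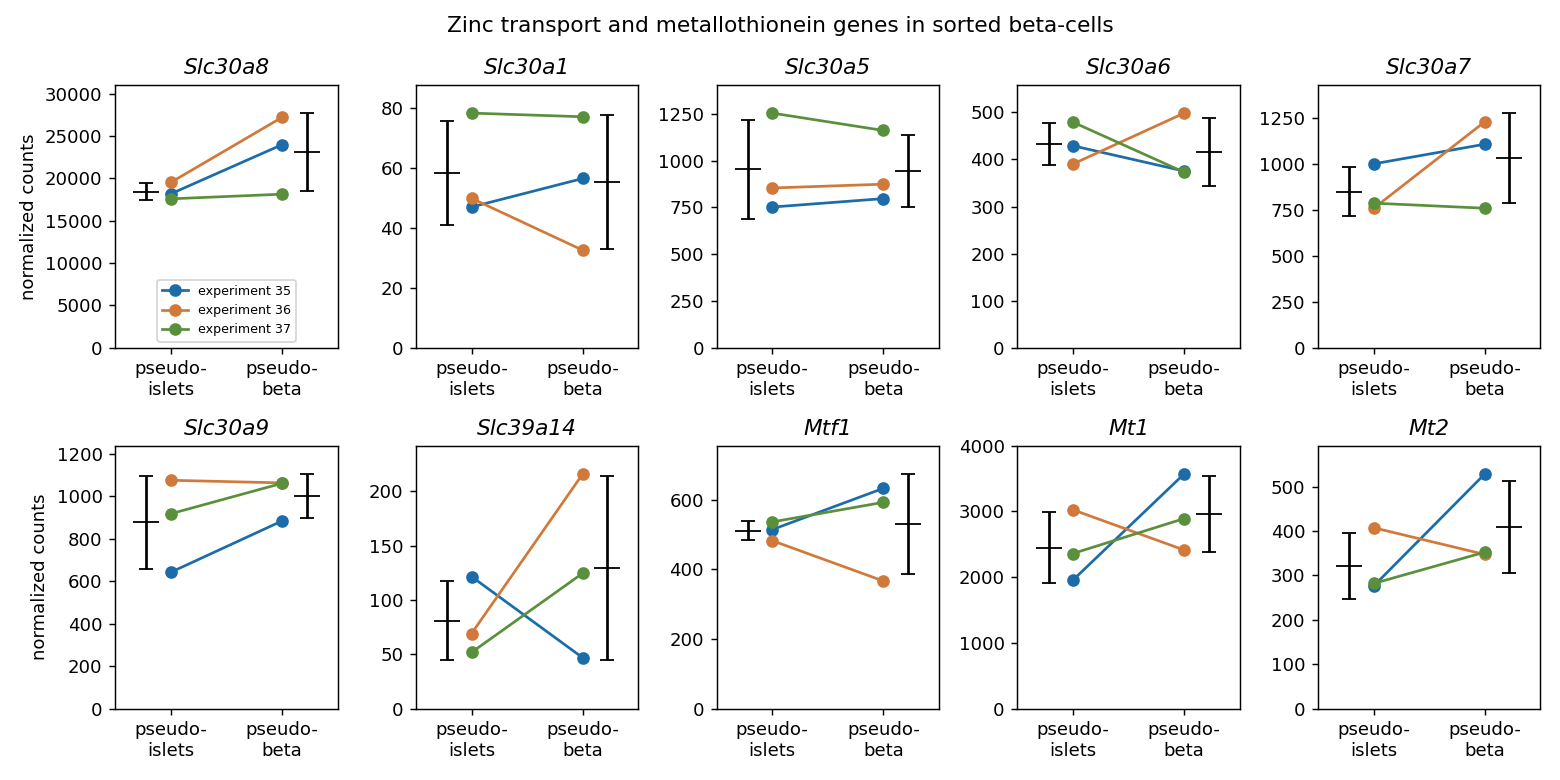
Normalized counts (y axes, each from 0) of the 10 genes in beta-cells of pseudo-islets and pseudo-beta. Points are libraries, lines join the samples of an experiment, and black bars give the mean and SD of 3 samples. The groups overlap for every gene, and the line runs the same way in all 3 experiments only for *Slc30a8*.

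The sorted cells carried the transcripts of beta-cells, and all 9 beta-cell markers looked for were in the table. Normalized counts summed to 18637128 to 19635287 per library in pseudo-islets and to 17994346 to 18380415 in pseudo-beta, and the number of reads is unknown. Markers of other islet cells differed between the groups. *Gcg*, the glucagon gene, had 941 to 2094 normalized counts in pseudo-islets and 0 to 36.1 in pseudo-beta, and *Sst*, the somatostatin gene, had 146 to 210.2 and 0 to 4.74. The 4 of 9 alpha-cell markers in the table summed to 7298 to 11040.0 in pseudo-islets and 4816 to 5915 in pseudo-beta. The 2 of 4 delta-cell markers summed to 369 to 532 and 249 to 273, and both PP-cell markers to 658 to 5500.2 and 328 to 2482. *Irx1* and *Irx2* of the alpha-cell list, *Hhex* of the delta-cell list, and all markers of acinar, endothelial, immune and stromal cells were not among the genes of the table. The table held 0 genes with under 10 normalized counts in 4 or more libraries. A gene outside it may therefore still be expressed at a low level or in few samples. *Sst* reached 10 in pseudo-islets only. Both ductal markers in the table, of 4 looked for, summed to 4898 to 5664 and 3917 to 6635. Nearly all of these sums came from *Krt7*, at 4892 to 5613.5 in pseudo-islets and 3906 to 6626 in pseudo-beta. *Krt19* was far lower in every library, and *Sox9* and *Cftr* were not among the genes of the table. The ductal sums therefore rest on *Krt7* and do not by themselves show ductal cells. The part of other cell types in the values of the zinc genes was not tested.

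*Slc30a8* (ENSMUSG00000022315), on chromosome 15 of GRCm38 from 52295553 to 52335798, encodes ZnT8, which loads zinc into insulin granules. Pseudo-islets of experiments 35, 36 and 37 gave 18169, 19518 and 17579 normalized counts, and pseudo-beta gave 23969, 27192 and 18128. Pseudo-islets were lower in each experiment, with differences of -0.40, -0.48 and -0.04 on the log2 scale, but the groups overlapped, because the pseudo-beta sample of experiment 37 lay within the range of pseudo-islets. Over all genes, 15.1% were lower in pseudo-islets in 3 of 3 experiments. The means were 18422 ± 994 (SD, n = 3) and 23096 ± 4595 (SD, n = 3), so that pseudo-beta samples spread more widely than pseudo-islets. Limma put this at -0.31 on the log2 scale (standard error 0.15, adjusted p = 0.933). With the replicate block the standard error was 0.08, the 95% confidence interval ran from -0.49 to -0.13, the unadjusted limma p was 0.00332 and the adjusted p = 0.166. That interval lay below 0 and within a 1.5-fold change. Experiment 37 decided this result, since leaving it out of the fit with the block gave a log2 fold change of -0.44 and an adjusted p = 0.0263 in limma, while leaving out experiment 35 or 36 gave adjusted p-values of 0.392 and 0.413. With 3 samples against 3, an exact permutation test of a single gene, two-sided, cannot give a p under 0.1.

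**Figure D2:**
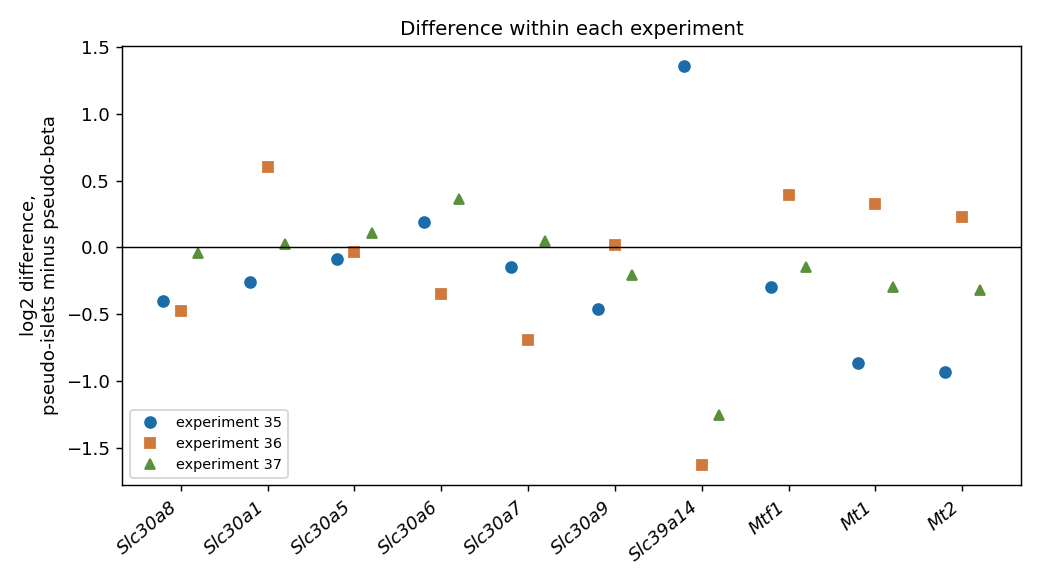
Difference between pseudo-islets and pseudo-beta of the same experiment on the log2(value + 1) scale (y axis) for each of the 10 genes (x axis). Each point is 1 experiment, and points below 0 mark a lower value in pseudo-islets. The points of *Slc30a8* lie at -0.40, -0.48 and -0.04, and those of *Mt1*, *Mt2* and *Mtf1* lie below 0 in experiments 35 and 37 and above 0 in experiment 36.

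*Slc30a1* (ENSMUSG00000037434), on chromosome 1 from 191906767 to 191913247, encodes ZnT1, the exporter of the plasma membrane and a known target of MTF1. It was among the least abundant of the 10, at 47.1, 49.95 and 78.4 normalized counts in the 3 pseudo-islets samples, taken in the same order, and 56.6, 32.6 and 77.2 in pseudo-beta. Experiment 37 gave the highest value in both groups, and the groups overlapped, with the lowest sample in pseudo-beta. The log2 fold change was 0.12 with a standard error of 0.42, and its 95% confidence interval, -0.80 to 1.04, was too wide to bound a change of 1.5-fold. The long noncoding gene *1700034H15Rik* overlaps *Slc30a1* on the opposite strand.

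*Slc30a5*, *Slc30a6* and *Slc30a7* encode the exporters of the early secretory pathway, where ZnT5 works as a pair with ZnT6 and zinc is handed to enzymes that need it. *Slc30a5* (ENSMUSG00000021629), on chromosome 13 from 100802648 to 100833427, reached 752, 854 and 1254 normalized counts with pseudo-islets and 797, 874 and 1161 with pseudo-beta. Here the samples followed the experiment and not the group, with experiment 37 highest on both sides, and limma put the log2 fold change at -0.0023 (standard error 0.22). With the block the interval narrowed to -0.26 to 0.25. Its partner *Slc30a6* (ENSMUSG00000024069), on chromosome 17 from 74395608 to 74424221, reached 429, 390.3 and 479 with pseudo-islets and 375, 498 and 373 with pseudo-beta. It was higher in pseudo-islets in experiments 35 and 37 and lower in experiment 36, and limma put the change at 0.07 on the log2 scale (standard error 0.20). *Slc30a7* (ENSMUSG00000054414), on chromosome 3 from 115938973 to 116007406, reached 1000.4, 759 and 787 with pseudo-islets and 1107, 1229.9 and 759 with pseudo-beta. The gap came mainly from experiment 36, where the difference was -0.70 on the log2 scale. Limma put its log2 fold change at -0.26 (standard error 0.21, adjusted p = 0.992). *Gm43106*, *Gm6649* and *Mir669n* overlap *Slc30a7* on the opposite strand, and 1780 of its 11116 exonic bases are shared with other genes.

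*Slc30a9* (ENSMUSG00000029221), on chromosome 5 from 67306955 to 67358443, encodes ZnT9, which exports zinc from mitochondria. Its normalized counts were 643, 1076 and 918 for pseudo-islets and 885, 1064 and 1062 for pseudo-beta. The pseudo-islets of experiment 35 were the lowest of the 6 samples, and in experiment 36 the groups were nearly equal. Limma put the log2 fold change at -0.22 (standard error 0.20, adjusted p = 0.998). *Slc39a14* (ENSMUSG00000022094), on chromosome 14 from 70303469 to 70351425, encodes ZIP14, an importer of zinc, iron and manganese. It varied more between samples than any other of the 10 genes, from 122, 69.1 and 51.8 normalized counts for pseudo-islets to 46.8, 216 and 125 for pseudo-beta. Pseudo-islets were higher in experiment 35, by 1.36 on the log2 scale, and lower in experiments 36 and 37, with differences of -1.63 and -1.25. Its log2 fold change of -0.51, the lowest of the 10, therefore came with a standard error of 0.53 and an interval from -1.68 to 0.67.

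**Figure D3:**
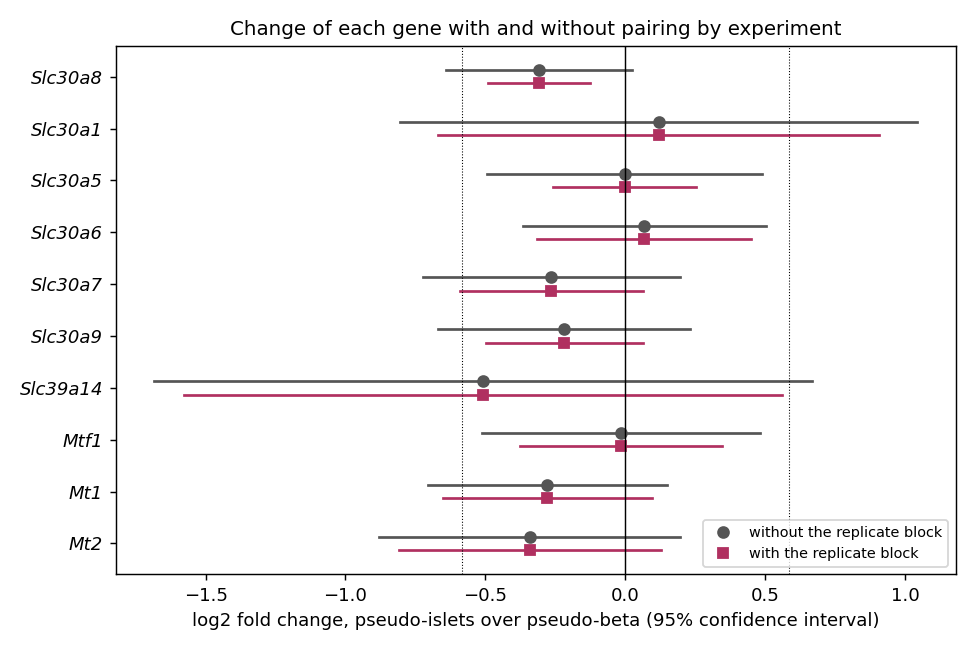
Log2 fold change, pseudo-islets over pseudo-beta (x axis), of the 10 genes, with bars for the 95% confidence interval from limma without the replicate block (grey circles) and with it (red squares). Dotted lines mark a 1.5-fold change in either direction. Only the interval of *Slc30a8* with the block, -0.49 to -0.13, leaves out 0.

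*Mt1* (ENSMUSG00000031765) and *Mt2* (ENSMUSG00000031762) encode the 2 metallothioneins found in most tissues. They lie on the same strand of chromosome 8, *Mt2* from 94172664 to 94173568 and *Mt1* from 94179082 to 94180327, with 5513 bases between them. In experiments 35, 36 and 37, *Mt1* reached 1956, 3025 and 2359.6 normalized counts with pseudo-islets and 3572, 2412 and 2892 with pseudo-beta. *Mt2* reached 276, 407 and 282 with pseudo-islets and 529, 347 and 352 with pseudo-beta. Both genes put the 6 samples in the same order, from the pseudo-islets of experiment 35, the lowest, through the pseudo-islets of 37 and the pseudo-beta of 36 and 37 to the pseudo-islets of 36 and the pseudo-beta of 35, the highest. Within experiments, the log2 difference of *Mt1* was -0.87 and -0.29 in experiments 35 and 37 and 0.33 in experiment 36, and that of *Mt2* was -0.93, -0.32 and 0.23. *Mt1* averaged 2447 ± 539.8 (SD, n = 3) normalized counts in the pseudo-islets group and 2959 ± 583 (SD, n = 3) in the other, which limma put at -0.28 on the log2 scale (standard error 0.19, adjusted p = 0.989). *Mt2* averaged 322 ± 74.2 (SD, n = 3) against 409 ± 103 (SD, n = 3), or -0.34 on that scale (standard error 0.24, adjusted p = 0.989 in limma). The difference is thus within the spread between samples for both genes. Experiment 35 carried most of it, since without it the fit with the block gave log2 fold changes of 0.016 for *Mt1* and -0.045 for *Mt2*, and without experiment 36 it gave -0.58 and -0.63, with adjusted p-values of 0.0639 and 0.298 in limma. The antisense gene *Gm45774* overlaps 432 of the 588 exonic bases of *Mt2*, and it had 19.0 to 80.7 normalized counts in a sample. Whether reads were counted by strand is not given in the sources used here, so that the reads of these 2 genes may not be fully told apart.

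*Mtf1* (ENSMUSG00000028890), on chromosome 4 from 124802104 to 124849800, reached 514, 482 and 536 normalized counts with pseudo-islets and 632, 366 and 592 with pseudo-beta. All 3 samples of pseudo-islets lay between the lowest and the highest sample of pseudo-beta. Like both metallothioneins, it was lower in pseudo-islets in experiments 35 and 37 and higher in experiment 36. Its log2 fold change was -0.016 (standard error 0.22), and the interval from -0.51 to 0.48 was within a 1.5-fold change. *1110065P20Rik*, which overlaps it on the opposite strand, had 319 to 594 normalized counts, so that part of its reads may not be told apart either.

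MTF1 binds metal response elements, whose core is TGCACNC or TGCGCNC. These 7 bases were looked for on both strands in the 250 bases before the RefSeq start of each gene (GRCm38.p6). The windows of *Mt2* and *Mt1*, the 2 genes that ordered the samples alike, are shown 5′ to 3′ with the cores in capitals. That of *Mt2* is chr8:94172368-94172617 and that of *Mt1* is chr8:94178839-94179088, both on the forward strand.
Mt2: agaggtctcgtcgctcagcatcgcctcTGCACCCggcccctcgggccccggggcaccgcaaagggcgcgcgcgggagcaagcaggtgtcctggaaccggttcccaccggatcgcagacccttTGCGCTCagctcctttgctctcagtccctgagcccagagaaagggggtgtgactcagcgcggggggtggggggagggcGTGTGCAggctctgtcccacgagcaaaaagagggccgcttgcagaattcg
Mt1: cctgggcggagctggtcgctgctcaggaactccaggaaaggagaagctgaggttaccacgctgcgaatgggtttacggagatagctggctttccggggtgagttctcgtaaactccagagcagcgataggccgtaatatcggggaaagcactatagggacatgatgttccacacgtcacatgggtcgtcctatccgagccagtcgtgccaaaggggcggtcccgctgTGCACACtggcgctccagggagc
The window of *Mt2* held 3 cores, beginning at positions -223, -128 and -50 from its RefSeq start, and that of *Mt1* held 1, at -23. *Slc30a1* and *Slc30a5* had 1 core each, at -43 and -48. No core was found in these windows of *Mtf1*, *Slc30a6*, *Slc30a7* and *Slc30a9*, and *Slc30a8* and *Slc39a14* had no entry. Of all 32851 windows, 21.4% held at least 1 core. Of the 12588 windows of genes in the table, 30.4% held at least 1 and 2.14% at least 3. GENCODE M21 also lists transcripts of *Mt1* that begin further 3′, whose upstream bases these windows do not cover. RefSeq starts also differ from the GENCODE starts given above. The window of *Mt2* ends short of its GENCODE start at 94172664, so the bases between were not searched. That of *Mtf1*, chr4:124802299-124802548, lies inside the gene as GENCODE places it.

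Levels were compared between genes after division by the length of the principal transcript in GENCODE M21, as normalized counts per kilobase, and over all 6 samples. *Slc30a8* was the most abundant, with 8919 to 13796 normalized counts per kilobase, and it made up 91.0% to 94.5% of the summed level per kilobase of the 6 exporter genes in a sample. *Mt1* came next with 3563 to 6506 per kilobase and *Mt2* after it with 541 to 1035. These 3 genes did not overlap with one another or with any gene below them. The level per kilobase of *Mt1* was 6.29 to 7.79 times that of *Mt2* within a sample, and it was 7.64 times or more only in both samples of experiment 37. Then followed *Slc30a5* (237 to 394 per kilobase), *Slc30a6* (174 to 232), *Slc30a9* (113 to 188) and *Slc30a7* (84.1 to 136), of which *Slc30a6*, *Slc30a9* and *Slc30a7* overlapped with their neighbours in this order. *Mtf1* had 48.0 to 82.9 per kilobase, just below the lowest sample of *Slc30a7*. *Slc39a14* (9.49 to 43.9) and *Slc30a1* (6.22 to 14.96) were lowest and overlapped with each other. The length chosen bears on this order. With the union of all annotated exons as the length, the mean of *Mt1* was 2169 per kilobase and that of *Mt2* 622, and *Slc30a6*, *Slc30a7* and *Slc30a1* had higher means than *Slc30a5*, *Slc30a9* and *Slc39a14*, respectively.

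**Figure D4:**
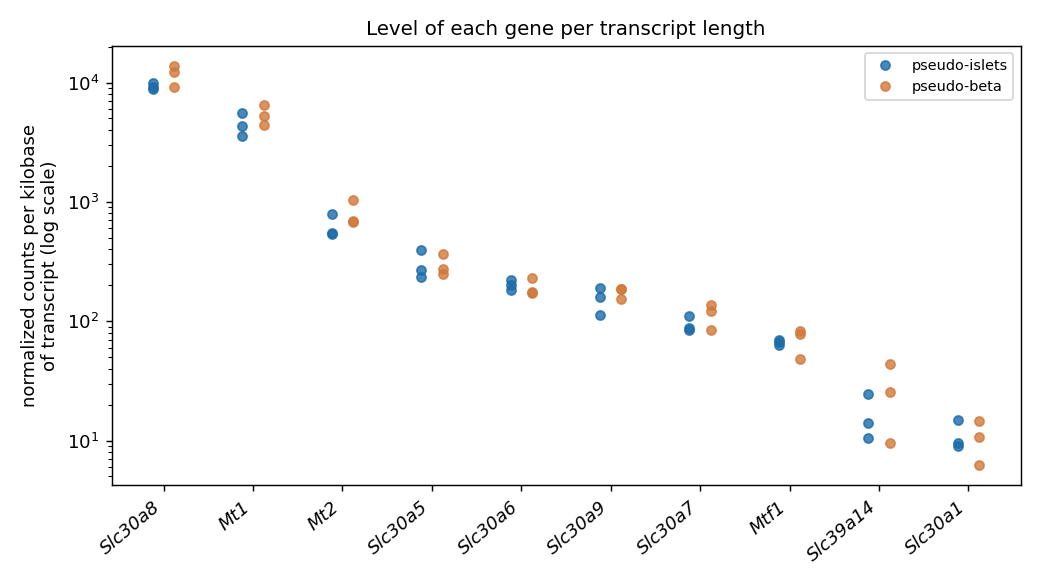
Normalized counts per kilobase of principal transcript (y axis, log scale) of the 10 genes, ordered by their mean over 6 samples (x axis). Each point is 1 library, blue for pseudo-islets and orange for pseudo-beta. *Slc30a8* and *Mt1* stand above the other genes in every library, and within each gene the 2 groups overlap.

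The precision differed between the genes. Without the block, the 95% confidence intervals of 3 of the 10 log2 fold changes lay within a 1.5-fold change in either direction, those of *Slc30a5*, *Slc30a6* and *Mtf1*, and 8 lay within a 2-fold change, all but *Slc30a1* and *Slc39a14*. With the block, 5 lay within 1.5-fold, *Slc30a8* and *Slc30a9* being added, and 9 within 2-fold, all but *Slc39a14*. For *Slc30a1*, *Slc30a7*, *Slc39a14*, *Mt1* and *Mt2*, neither interval bounded the change to 1.5-fold. For 0 of the 10 genes did the samples of the 2 groups not overlap, where this holds for 10.8% of all genes.

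Of 25 further genes of zinc transport, metallothioneins and MTF1 targets, 17 were in the table. In limma the adjusted p was under 0.05 for 0 of the 17 and the unadjusted p for 1 (0.0591% and 5.40% of all genes), and with the block again for 0 and 1 (0.539% and 11.9% of all genes). Their log2 fold changes had a median of 0.10, and 11 were above 0 and 6 below. Of the 9 ZIP importers in the table, 6 had values above 0 and 3 below. *Slc39a8*, a ZIP importer close to *Slc39a14*, was the highest of them at 1.22 (standard error 0.59), at 62.6, 24.6 and 57.2 normalized counts with pseudo-islets and 16.6, 38.8 and 9.60 with pseudo-beta, so that the groups overlapped at low values. *Slc39a13*, an importer of the secretory pathway, was the lowest at -0.37 (standard error 0.23), with 229, 226 and 202 against 235, 364 and 262. Of the other exporters, *Slc30a4* had a log2 fold change of 0.14 (standard error 0.27), and *Tmem163*, a zinc efflux protein outside the SLC30 family, one of 0.39 (standard error 0.38). *Mt3*, the metallothionein best known from brain, reached 28.1, 30.1 and 31.1 normalized counts with pseudo-islets and 15.5, 13.4 and 24.7 with pseudo-beta. Its direction was opposite to that of *Mt1* and *Mt2*, at 0.75 on the log2 scale (standard error 0.47, adjusted p = 0.976 in limma). Higher values in pseudo-islets in 3 of 3 experiments were found for 3 of the 17 genes, *Slc30a4*, *Slc39a1* and *Mt3*, and for 18.0% of all genes. Lower values in 3 of 3 were found for another 3, *Slc39a13*, *Selenow* and *Gclc*, and for 15.1% of all genes. The groups did not overlap for 4 of the 17, *Slc39a1*, *Slc39a13*, *Mt3* and *Selenow*, and for 10.8% of all genes. *Slc39a1* and *Gclc* were named after their values were seen.

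*Selenow*, a small selenoprotein gene on the list of MTF1 targets, had the lowest log2 fold change of the 17. Its normalized counts were 1042, 1329 and 939 for pseudo-islets and 1683, 1728 and 1388 for pseudo-beta, so that all samples of pseudo-islets lay below all samples of pseudo-beta. Limma put the change at -0.54 on the log2 scale (standard error 0.17, adjusted p = 0.781). With the replicate block the adjusted p was 0.0591, just above the threshold, with an interval from -0.79 to -0.30. Without experiment 36 in the block it was 0.0454, and without experiments 35 and 37 it was 0.257 and 0.225. *Csrp1*, at the other end of that list, had a log2 fold change of 0.77 (standard error 0.70) at 4.57 to 29.7 normalized counts in a sample. Of the 5 MTF1 targets, 2 had values above 0 and 3 below.

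The genes most like *Mt1* and *Slc30a8* over the 6 samples were found among 10576 other genes whose normalized counts averaged 50 or more. Likeness was the root mean square difference of log2(value + 1) after each gene was centred on its own mean. For *Mt1*, whose own SD over the 6 samples was 0.31 on the log2 scale, the closest were *Stbd1* (0.0710), *Zcchc7* (0.108), *Actr6* (0.109), *Nr1d2* (0.110) and *Zfp608* (0.115), and *Mt2* came next, at place 6 with 0.117. For *Slc30a8*, with an SD of 0.26, they were *Atp6v0a2* (0.0616), *Erlin1* (0.0687), *Sgtb* (0.0709), *Fez2* (0.0713) and *Gpank1* (0.0751). These are descriptions of 6 samples, 3 of which share an experiment with the other 3.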

How the data were processed

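RNA of sorted beta-cells from 3 pseudo-islets and 3 pseudo-beta samples was analysed. Per the labels, 5 ng of total RNA went into each library. According to the submitters' processing notes, the authors used STAR 2.7.6a, RSEM 1.3.1 and DESeq2 1.26.0 on GRCm38. The signal in the deposited table is the authors' normalized counts; at most 26.8% to 42.9% of the low values in a library lie on any single step, so no whole reads were recovered. The deposited columns of fold changes and p-values were not used. No gene was removed from the deposited table, which already held 0 genes with under 10 normalized counts in 4 or more libraries.

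Values were compared as log2(value + 1) with limma 3.58.1 in R 4.3.3, with a trended prior variance, Benjamini-Hochberg adjustment over all 13535 genes and a call at an adjusted p under 0.05. Samples of one experiment deviated together (correlations of 0.119, 0.121 and 0.325 across genes for experiments 35, 36 and 37, all above 0.1). For this reason the experiment was also taken as a replicate block. Samples of different experiments gave -0.203 to 0.0922, the highest for pseudo-islets of 35 with pseudo-beta of 36. The pairing was thus clearest for experiment 37. The tests were tested on simulated data. Members and lists were chosen with earlier results of these data known. Genes outside the 10 are named when highest or lowest of their list, when called with or without the block, or when among the 5 most alike. Coordinates and lengths are from GENCODE M21 on GRCm38, and promoter windows from RefSeq.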

Additional observations from a re-analysis of the deposited data

How the results depend on the processing

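Across the 19 alternatives, limma called 0 of the 10 zinc genes, except for 1, *Slc30a8*, when experiment 37 was left out of the replicate block. The count of the 17 other zinc genes was 0, except for 1, *Selenow*, with the block without experiment 36, with the block after scaling without the 10 most abundant genes, and with the block and a minimum of 10 in every library. The block alone gave 0 and 0, and changed no call. Signs were followed for the 10 genes and for *Slc30a4*, *Tmem163*, *Slc39a1*, *Slc39a8*, *Slc39a13*, *Mt3*, *Csrp1* and *Selenow*, and not for the rest of the 17. Log2 fold changes of 7 of the genes followed turned their sign under some alternative. Without 1 library they ran from -0.22 to 0.16 for *Slc30a5*, -0.26 to 0.13 for *Mtf1*, -0.21 to 0.40 for *Slc30a1*, -0.0083 to 0.20 for *Slc30a6* and -0.018 to 0.32 for *Slc30a4*. In the block without experiment 35 they were 0.038 for *Slc30a5*, 0.13 for *Mtf1* and 0.016 for *Mt1*; without experiment 36, -0.12 for *Slc30a1*, 0.014 for *Slc30a5* and 0.053 for *Slc39a14*; and without experiment 37, -0.079 for *Slc30a6* and 0.048 for *Mtf1*. The cause was not tested. The sign of *Slc30a8*, *Slc30a7*, *Slc30a9* and *Mt2* was kept in all 19. The adjusted p of *Slc30a8* with the block was 0.0514 after scaling without the 10 most abundant genes and 0.653 without the trend in the prior variance. The alternatives that join the block with another setting were added after the data were seen. Standard errors rest on 3 samples a group and no read counts. Of the zinc genes named, *Csrp1*, *Slc39a8* and *Slc39a14*, all at low values, had the largest (0.70, 0.59 and 0.53).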
